A study of Mus musculus with 2 samples.

Results

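The 8 genes Cacna1a, Cacna1b, Cacna1c, Cacna1d, Cacna1e, Cacna1g, Cacna1h and Cacna1i encode pore-forming alpha1 subunits of voltage-gated calcium channels. They were chosen by name, and all 8 of 8 were found among the 39098 gene symbols of the 2 count tables. Single cells of the right trigeminal ganglion (TG) of male C57BL/6 mice, aged 5 to 8 weeks, were captured on the BD Rhapsody platform and sequenced as 1 control library and 1 library from mice given complete Freund's adjuvant (CFA) in the right vibrissal pad, a model of orofacial inflammation. The label of the control library reads untreated, whereas the methods of the study describe a saline injection for control mice, and no transgene or allele is named for either group. How many mice were pooled in a library is not given in the sources used here, so each condition is 1 sample, no test between conditions was possible, and the intervals given below (95%, exact) cover counting error only.

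A voltage-gated calcium channel opens when the membrane is depolarised and lets calcium into the cell. The alpha1 subunit forms its pore, its voltage sensor and many of its drug binding sites. T-type channels (Cacna1g, Cacna1h, Cacna1i) open near the resting potential and shape firing thresholds and bursts. L-type channels (Cacna1c, Cacna1d) open at stronger depolarisation, carry long-lasting currents and couple activity to gene expression and, in muscle, to contraction. The P/Q-type (Cacna1a), N-type (Cacna1b) and R-type (Cacna1e) channels sit largely at nerve terminals, where calcium entry triggers the release of transmitter. In sensory ganglia, Cacna1h is known as the main T-type gene and is known to be expressed by low-threshold mechanoreceptors, including the C-fibre type (cLTMR), which responds to gentle touch of hairy skin. Beside the pore, channels carry beta and alpha2delta subunits and bind regulators that set their number and gating.

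The control library had 6695 cells after filtering and the CFA library 3661. Neurons, gated by 5 pan-neuronal genes, numbered 860 and 426, with a median of 42404 and 35294 unique molecular identifiers (UMIs) per cell. The other cells had a median of 1297 and 1091 UMIs, so low levels could be seen far better in neurons. The libraries shared 27 cell labels. Levels are summed UMIs of a class per 1000000 UMIs of that class (CPM). They were compared for 1 gene between classes, never between genes, because capture was not corrected for each transcript.

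Neurons were sorted by raw marker UMIs into 9 classes. cLTMR-like neurons (P2ry1 of at least 200 CPM) numbered 79 in control and 50 in CFA. They also held Tafa4, Slc17a8 and Th, further markers of that type. The levels of Gfra2, Piezo2 and Zfp521, which were on the same marker list, are not given here. Tafa4 amounted to 426 and 432 CPM in them against 16.0 and 11.9 CPM in other neurons, and Slc17a8, which encodes the vesicular glutamate transporter of these cells, to 98.8 and 94.1 against 1.42 and 1.04 CPM. Th, tyrosine hydroxylase, was at 175 and 349 CPM against 18.6 and 9.60. The remaining classes were Trpm8 neurons (cold-sensing, 55 and 33), NP1 neurons with Mrgprd (179 and 68), NP2 neurons with Mrgpra3 (54 and 13), Sst/Nppb neurons (15 and 12), Nefh-high neurons (31 and 13), Nefh-high peptidergic neurons (10 and 13), and peptidergic C neurons with Sstr2 (119 and 71) or without it (269 and 137). A further 49 and 16 neurons met no gate.

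Among the T-type genes, Cacna1h (chromosome 17, 25374285 to 25433783, minus strand, GRCm38) was highest in cLTMR-like neurons in both libraries. The control library held 549 Cacna1h UMIs in these cells, a level of 134 CPM (123 to 146), and the CFA library 264 UMIs, a level of 113 CPM (100 to 128). All other neurons together were at 17.7 CPM (16.3 to 19.2) and 17.1 CPM (15.1 to 19.4). The log2 ratio of cLTMR-like over other neurons was 2.92 (2.75 to 3.09) and 2.73 (2.47 to 2.98), a 7.56-fold and 6.62-fold difference. cLTMR-like neurons were 9.19% and 11.7% of neurons and held 47.2% and 51.6% of the Cacna1h UMIs of all neurons.

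The high level was spread over the class rather than carried by a few cells. A Cacna1h UMI was found in 68 of 79 control and 45 of 50 CFA cLTMR-like neurons, against 262 of 781 and 133 of 376 other neurons. Per cell, the median was 103 CPM in control, with a highest value of 1136 CPM, and 109 CPM in CFA, with a highest value of 342 CPM. In other neurons the median cell had none. With each neuron reduced to 5000 UMIs, which left out 4 control and 1 CFA cLTMR-like neurons and 62 and 20 others, Cacna1h was found in 45.3% (33.8% to 57.2%) and 42.9% (28.8% to 57.8%) of cLTMR-like neurons. The same share was 9.60% (7.54% to 11.99%) and 10.1% (7.18% to 13.7%) of other neurons.

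**Figure D1:**
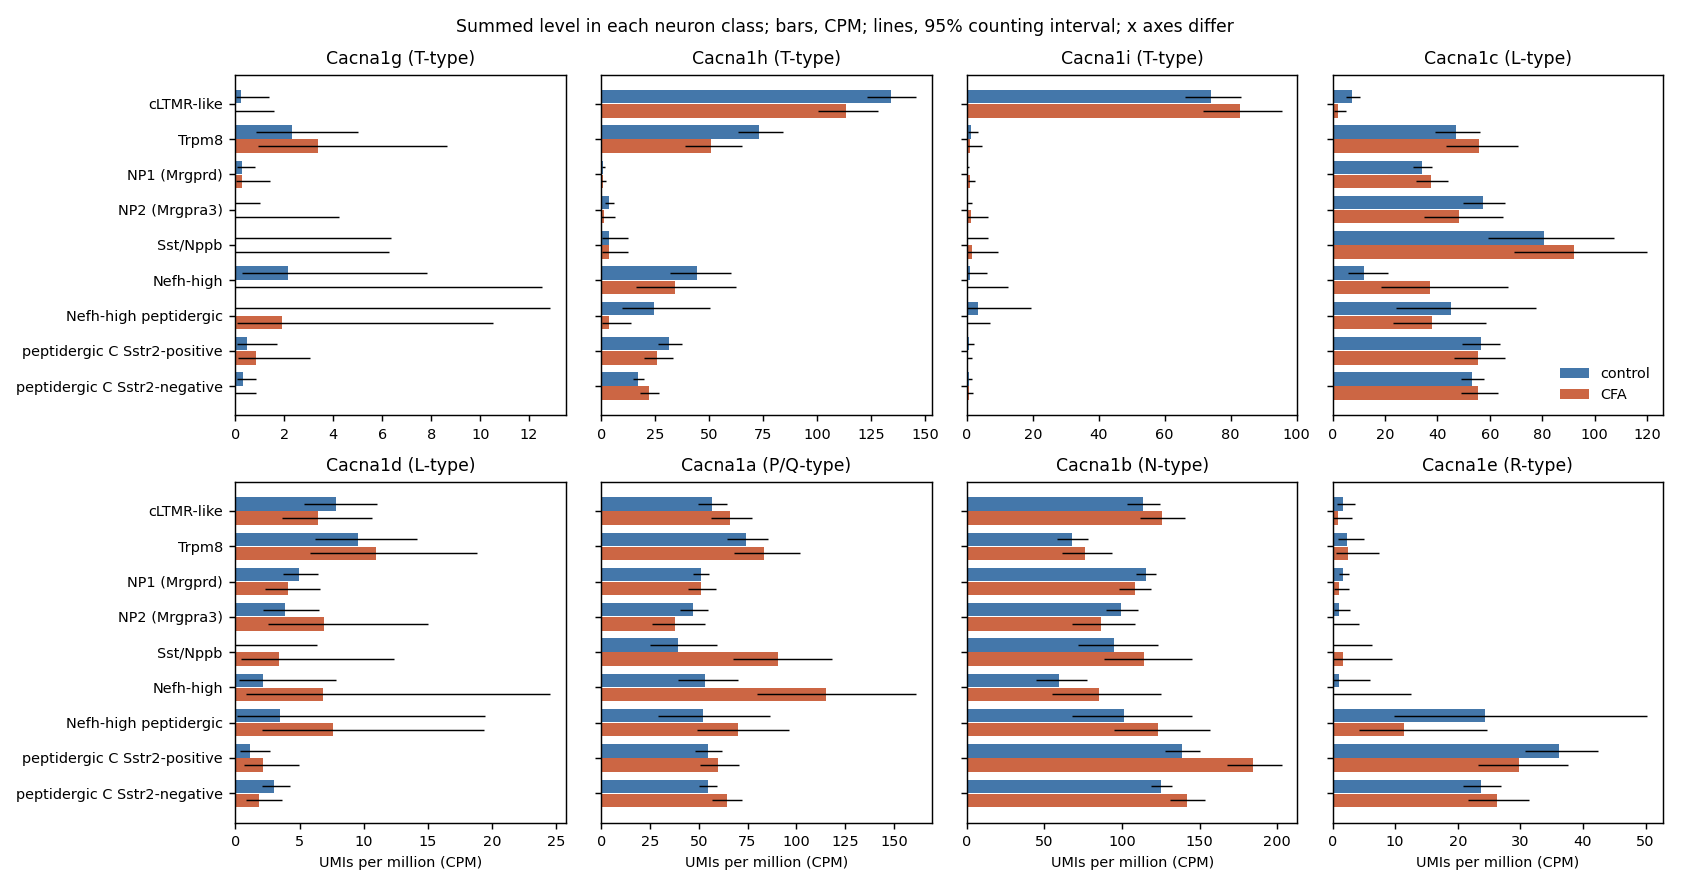
Level of the 8 alpha1 genes (x axis, CPM, a different range in each panel) in the 9 neuron classes (y axis) for the control (blue) and CFA (orange) library. Bars are summed levels and lines their 95% counting intervals, which for classes with no UMI show only the upper limit. Cacna1h and Cacna1i peak in cLTMR-like neurons, where Cacna1c and Cacna1e are low.

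The second class for Cacna1h was the Trpm8 neurons, where control had 73.2 CPM (63.2 to 84.3) and CFA 50.7 CPM (38.7 to 65.2). The cLTMR-like level exceeded it by 0.87 (0.63 to 1.12) and 1.16 (0.75 to 1.59) on the log2 scale. Trpm8 neurons were themselves mixed in control, where those with Nefh of at least 500 CPM, a sign of a thicker fibre, had 79.7 CPM and the others 41.0 CPM. In CFA these groups had 49.96 and 54.2 CPM and the order was not seen. Nefh-high neurons followed with 44.3 CPM (31.8 to 60.1) and 33.9 CPM (16.3 to 62.4). They too were mixed in control, where 7 cells with Ntrk2 of at least 100 CPM had 81.4 CPM (44.5 to 136.6). These cells held 14 UMIs, of which 1 cell held 10. The other 24 cells had 35.8 CPM (23.6 to 52.1), and in CFA no Nefh-high neuron reached this Ntrk2 level. In CFA the step from Trpm8 to Nefh-high neurons was within counting error.

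Peptidergic C neurons, which carry the neuropeptide gene Calca, had an intermediate Cacna1h level. It was 31.5 and 25.9 CPM with Sstr2, and 17.1 and 22.1 CPM without it. Nefh-high peptidergic neurons had 24.4 CPM from 7 UMIs in control and 3.78 CPM from 2 UMIs in CFA. At the lower end stood the non-peptidergic and pruriceptive classes. NP1 neurons had 0.985 CPM (0.492 to 1.76) and 0.763 CPM (0.157 to 2.23), which is 0.736% and 0.672% of the cLTMR-like level. NP2 neurons had 3.59 and 1.15 CPM and Sst/Nppb neurons 3.44 and 3.41 CPM, from 1 to 13 UMIs each. At 5000 UMIs, 0 of 172 control and 0 of 65 CFA NP1 neurons had a Cacna1h UMI, which by a floor of 3 cells allows shares of cells with a UMI at this depth of up to 1.74% and 4.62%.

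**Figure D2:**
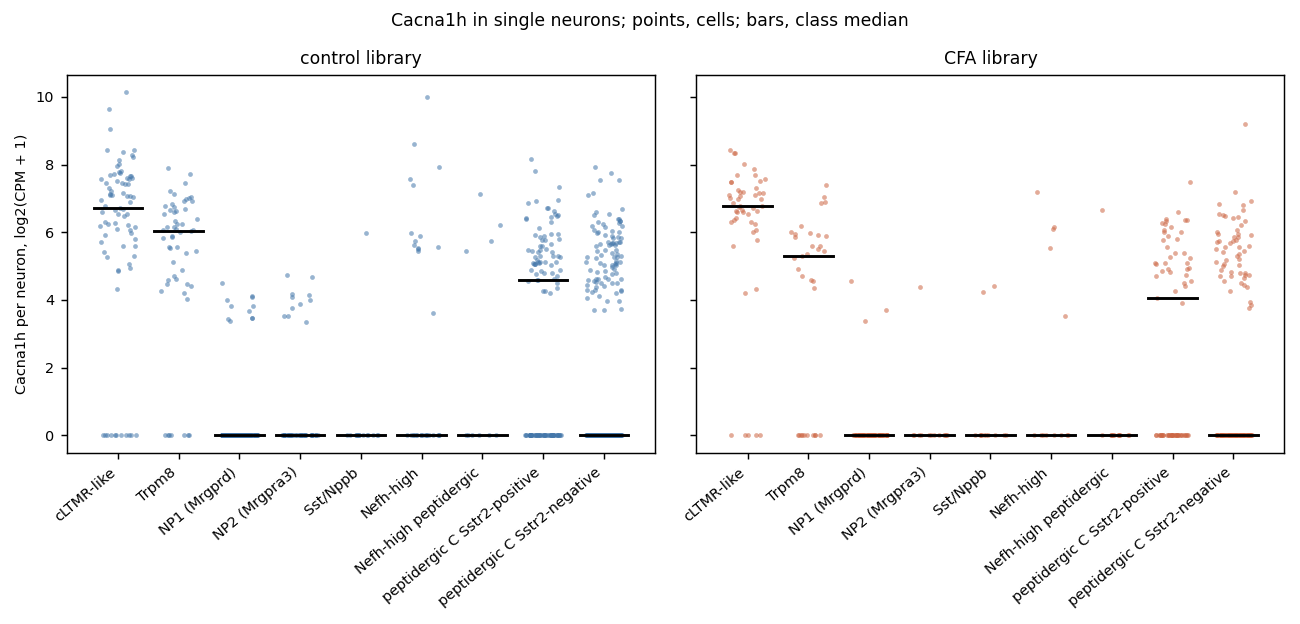
Cacna1h in each neuron (y axis, log2 of CPM + 1) by neuron class (x axis), control library on the left and CFA on the right, with a point for each cell and a bar for the class median. The cLTMR-like medians are 103 and 109 CPM, Trpm8 neurons come next, and the NP1, NP2 and Sst/Nppb medians are 0.

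Around the P2ry1 threshold, which defined the class, Cacna1h had the following levels. In control neurons with 100 to 200 CPM of P2ry1, just outside the gate, it was at 46.1 CPM (16 cells), and in those with 200 to 300 CPM, just inside it, at 108 CPM (8 cells). In CFA the 3 cells just outside the gate had 34.9 CPM and the 3 cells just inside it 253 CPM, from 4 and 17 UMIs. In control neurons with P2ry1 the level rose at each step, with 13.2 CPM at 50 to 100 CPM of P2ry1, 131 CPM at 300 to 500 CPM and 137 CPM from 500 CPM. In CFA it did not rise step by step, and the highest value was that of the 3 cells just inside the gate. CFA neurons further inside it had 102 CPM at 300 to 500 CPM of P2ry1 (16 cells) and 113 CPM from 500 CPM (31 cells). The 559 control and 316 CFA neurons without P2ry1 had 24.4 and 22.0 CPM. This was above the 6.79 and 3.24 CPM of those with less than 50 CPM of it. Neurons with less than 50 CPM of P2ry1 had Mrgprd, the NP1 marker, at 322 and 273 CPM, against 70.8 and 82.5 CPM in those without P2ry1.

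Cacna1i (chromosome 15, 80287238 to 80398279, plus strand), the second T-type gene of these neurons, was found almost only in the cLTMR-like class. Its level there was 74.2 CPM (66.1 to 83.0) for control cells and 82.9 CPM (71.6 to 95.5) for CFA cells. Other neurons had 0.808 and 0.760 CPM, so the log2 ratio was 6.52 (5.96 to 7.13) and 6.77 (5.90 to 7.80). Of the 332 control and 204 CFA neuronal UMIs, 304 and 193 came from cLTMR-like neurons, or 91.6% and 94.6%. This set the class apart from Trpm8 neurons, which had Cacna1h but hardly any Cacna1i (1.15 and 0.845 CPM). Cacna1h and Cacna1i were found together in 64 of 79 control and 41 of 50 CFA cLTMR-like neurons. Cacna1h alone was found in 4 and 4, and Cacna1i alone in 1 and 1. In Trpm8 neurons 47 of 55 and 22 of 33 had Cacna1h alone, and 1 and 1 had both.

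Cacna1g (chromosome 11, 94408391 to 94474198, minus strand), the third T-type gene, was barely detected in neurons. All neurons together held 17 UMIs in control and 9 in CFA, or 0.439 and 0.535 CPM. Of these, 6 and 4 UMIs lay in Trpm8 neurons. No ratio between neuron classes was drawn from such counts.

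The L-type gene Cacna1c (chromosome 6, 118587240 to 119196418, minus strand) was opposite to Cacna1h in cLTMR-like neurons, but not in every other class. cLTMR-like neurons were the lowest of the 9 classes, with 7.32 CPM (4.94 to 10.4, 30 UMIs) in control and 2.15 CPM (0.697 to 5.01, 5 UMIs) in CFA. In control the step to Nefh-high neurons, at 11.9 CPM, was within counting error. A single control cell held 9 of the 30 UMIs. Other neurons had 46.8 CPM (44.5 to 49.1) and 50.9 CPM (47.3 to 54.7), so that cLTMR-like neurons were lower by log2 ratios of -2.68 (-3.25 to -2.16) and -4.57 (-6.19 to -3.34). The highest level was in Sst/Nppb neurons, a class linked to itch, with 80.9 CPM (59.4 to 108) and 92.1 CPM (69.2 to 120). Most other classes lay between 34.2 and 57.5 CPM in control and between 37.3 and 55.7 CPM in CFA. Trpm8 neurons, second for Cacna1h, were not low for Cacna1c, at 47.1 and 55.7 CPM. NP1 neurons, lowest for Cacna1h, were not high for Cacna1c, at 34.2 and 37.6 CPM.

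Cacna1d (chromosome 14, 30039939 to 30491455, minus strand), the other L-type gene measured, was low throughout. Neurons held 171 and 74 of its UMIs, or 4.41 and 4.40 CPM. The highest class was the Trpm8 neurons, with 9.58 CPM (6.20 to 14.1) and 10.98 CPM (5.85 to 18.8), but it did not differ from the next class beyond counting error in either library. cLTMR-like over other neurons gave a log2 ratio of 0.96 (0.36 to 1.52) in control and 0.66 (-0.26 to 1.5) in CFA. The first stood off 0 by its counting interval and the second did not.

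Of the 3 genes for channels of nerve terminals, Cacna1a and Cacna1b were found in every neuron class, and cLTMR-like neurons did not stand out. Cacna1a (chromosome 8, 84388440 to 84640246, plus strand) was at 56.8 and 66.2 CPM in cLTMR-like neurons and at 54.3 and 62.9 CPM in other neurons. The log2 ratios were 0.07 (-0.14 to 0.26) and 0.07 (-0.18 to 0.32). Across the 9 classes it ran from 39.6 to 74.3 CPM in control and from 37.9 to 115 CPM in CFA. In control Trpm8 neurons were highest. In CFA Nefh-high neurons had the highest value, with 12 of its 34 UMIs in 1 of 13 cells, and did not differ beyond counting error from Sst/Nppb neurons at 90.4 CPM (log2 0.35, -0.31 to 1.00).

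Cacna1b (chromosome 2, 24603887 to 24763152, minus strand) was at 113 and 125 CPM in cLTMR-like and at 115 and 129.5 CPM in other neurons. The log2 ratio was -0.01 (-0.16 to 0.13) in control and -0.05 (-0.23 to 0.13) in CFA. Its highest class was the peptidergic C neurons with Sstr2, at 138 CPM (127 to 150) and 185 CPM (168 to 203). Its lowest were Nefh-high neurons in control (59.4 CPM) and Trpm8 neurons in CFA (76.0 CPM), and these 2 classes did not differ from each other beyond counting error in either library. N-type channels are the target of the analgesic peptide ziconotide.

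Cacna1e (chromosome 1, 154390731 to 154884501, minus strand), which encodes the R-type pore, was highest in the classes gated on Calca. Peptidergic C neurons had 36.2 CPM (30.7 to 42.3) and 29.7 CPM (23.2 to 37.5) with Sstr2, and 23.8 CPM (20.9 to 27.0) and 26.2 CPM (21.6 to 31.5) without it. Nefh-high peptidergic neurons had 24.4 CPM from 7 UMIs in control, of which 1 cell held 5, and 11.3 CPM from 6 UMIs in CFA. The other 6 classes lay between 0 and 2.53 CPM in both libraries. cLTMR-like neurons had 1.71 CPM (7 UMIs) and 0.859 CPM (2 UMIs), and other neurons 12.8 and 13.8 CPM. The log2 ratio was -2.90 (-4.22 to -1.85) in control and -4.00 (-7.06 to -2.13) in CFA.

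All these genes but Cacna1g, 7 in number, had at least 50 UMIs in the neurons of both libraries. In both libraries 2 of them (Cacna1h, Cacna1i) were at least 2-fold higher and 2 (Cacna1c, Cacna1e) at least 2-fold lower in cLTMR-like than in other neurons. Cacna1i reached 50 UMIs only through cLTMR-like neurons, since other neurons held 28 of its UMIs in control and 11 in CFA. Its place among the higher genes therefore follows from that limit. Cacna1c and Cacna1e in turn reached 50 UMIs through the other neurons, where they were higher. cLTMR-like neurons held 30 and 5 UMIs of Cacna1c and 7 and 2 of Cacna1e. Their place among the lower genes is therefore not free of the limit either. Among all genes with that many UMIs, 6.21% in control and 6.76% in CFA were 2-fold higher, and 14.4% and 13.7% were 2-fold lower. The median log2 ratio was 0.07 and 0.07 over the 7 genes, and -0.03 and -0.04 over all genes.

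**Figure D3:**
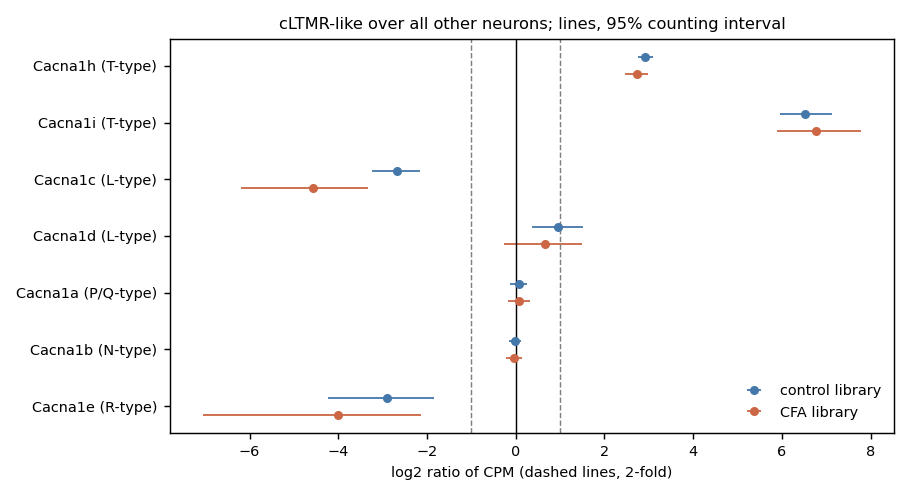
Log2 ratio of the level in cLTMR-like over all other neurons (x axis) for the 7 genes with at least 50 UMIs in neurons of both libraries (y axis), control in blue and CFA in orange, with 95% counting intervals. Dashed lines mark 2-fold, and Cacna1h and Cacna1i lie to the right of them, Cacna1c and Cacna1e to the left, and the other 3 between them.

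A list of 26 further genes held the other two alpha1 genes, the beta, alpha2delta and gamma subunits, the Stac, RGK and Cabp1 regulators and Nalcn. All 26 were in the tables, and 18 had at least 50 UMIs in neurons of both libraries. The alpha1 genes of retina and skeletal muscle, Cacna1f and Cacna1s, were not among the 18, with 6 and 4 neuronal UMIs in control and 1 and 4 in CFA. In both libraries 5 of the 18 were at least 2-fold higher and 6 at least 2-fold lower in cLTMR-like neurons, and 7 were neither. Within each library alone, 5 and 5 of the 18 were higher and 7 and 8 lower. Among all genes with at least 50 UMIs, 6.21% in control and 6.76% in CFA were 2-fold higher, and 14.4% and 13.7% were 2-fold lower. The median log2 ratio was -0.53 and -0.39 over the 18, and -0.03 and -0.04 over all genes.

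The 5 higher genes came from several families. Rem2, an RGK protein that restrains calcium channels, had the largest ratio (log2 5.71 and 5.54). It was at 25.6 and 38.7 CPM against 0.491 and 0.829 CPM. All neurons together held 122 and 102 Rem2 UMIs, most of them in cLTMR-like neurons. Rem2 therefore met the minimum UMI count only through that class, and its place among the higher genes follows from that limit. Stac2, an adaptor that binds L-type channels, was at 167 and 214 CPM against 13.5 and 21.2 CPM (3.63 and 3.34). Cacna2d3, an alpha2delta subunit, had 98.8 and 92.8 CPM against 25.5 and 19.3 CPM (1.95 and 2.27). Cabp1, a calmodulin-like calcium sensor, and Cacng5, a gamma subunit family member known for its action on AMPA receptors, had log2 ratios of 1.84 and 1.98 and of 1.77 and 2.24.

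The 6 lower genes held close relatives of these. Stac, a paralogue of Stac2, was at 21.0 and 16.3 CPM in cLTMR-like neurons against 165 and 145 CPM in others (log2 -2.98 and -3.15). Cacna2d1, the alpha2delta subunit bound by gabapentin, was at 196 and 185 CPM against 399.7 and 480.2 CPM (-1.03 and -1.37). Gem, an RGK protein like Rem2, had 0.244 CPM against 5.92 CPM in control and no UMI against 4.56 CPM in CFA. In CFA a floor of 3 UMIs in the cLTMR-like class would put other neurons 3.54-fold higher. The counting interval of that log2 ratio reached up to -1.48. Cacnb2, Cacng3 and Cacng4 made up the rest, at 0.244 to 2.15 CPM in cLTMR-like neurons. Gem and these genes met the minimum UMI count through the other neurons. Their place among the lower genes is therefore not free of that limit. In control the 0.244 CPM of Gem, Cacnb2 and Cacng4 is 1 UMI, below the floor of 3 UMIs. Their log2 intervals were wide, such as -9.43 to -1.62 for Cacnb2 in control and -3.30 to -0.37 for Cacng3 in CFA. Within the Stac, RGK and alpha2delta families 1 member was higher and another lower in the class.

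The genes whose level most resembled that of Cacna1h were sought over 36 points (9 neuron classes and 9 non-neuronal types in each library) among 12756 genes with at least 200 UMIs. By Pearson's r on log2(CPM + 1) they were Pnck (0.79), Kcnh2 (0.76), Osbpl6 (0.75), Cdh4 (0.75) and Ndrg3 (0.75). Kcnh2, a potassium channel gene, had 55.9 CPM in cLTMR-like, 27.2 in Trpm8 and 0.448 in NP1 neurons of the control library. The points share 2 libraries and differ in depth, so these values are a description.

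Outside neurons, levels were read against 8 genes that ganglion neurons express and the other cells should lack, such as Prph, Avil and Scn10a. In most types the median of these genes lay between 1.31% and 8.97% of their neuronal level, which gives the size of the neuronal RNA that other cells carried. Non-myelinating Schwann cells were the exception, with a median of 23.8% and 23.3% and Scn10a at 77.5% and 96.3%. Of the 386 and 176 cells with that gate, 83 and 28 had 1500 CPM or more of the neuron genes. Without these cells Cacna1a fell from 68.1 to 25.6 CPM in control and from 151 to 46.6 CPM in CFA, Cacna1b from 65.9 to 16.0 CPM and from 102 CPM to no UMI, and Cacna1i from 15.4 and 16.1 CPM to no UMI in either library. Without them Scn10a was at 32.1 and 15.5 CPM, so no level of a calcium channel gene is given for this type beyond these.

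**Figure D4:**
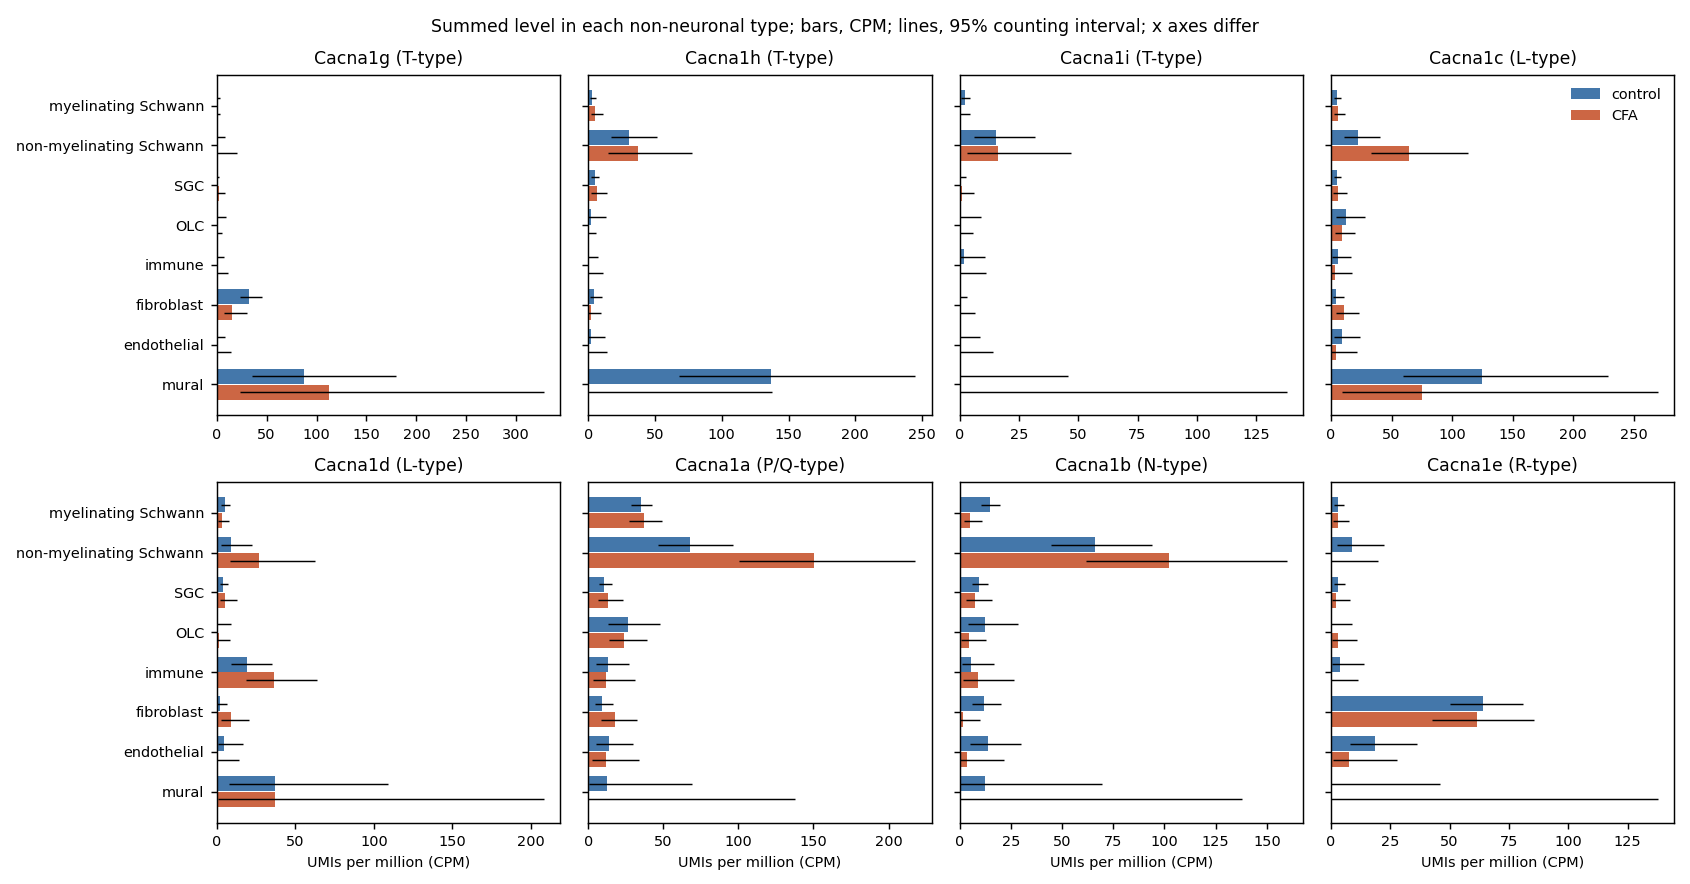
Level of the 8 alpha1 genes (x axis, CPM, a different range in each panel) in 8 non-neuronal types (y axis), control in blue and CFA in orange, bars for summed levels and lines for 95% counting intervals. Fibroblasts stand out for Cacna1e, mural cells for Cacna1g and, in control, Cacna1c and Cacna1h. The non-myelinating Schwann gate holds neuronal RNA, and erythroid cells are not shown. In CFA the Cacna1c of mural cells is 2 UMIs in 1 cell.

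Fibroblasts had more Cacna1e than neurons did as a whole. The level was 64.2 CPM (50.2 to 81.0, 71 UMIs in 56 of 579 cells) in control and 61.4 CPM (42.8 to 85.4, 35 UMIs in 26 of 357 cells) in CFA, against 11.6 and 11.96 CPM in all neurons. They also held Cacna1g, with 32.6 CPM (22.8 to 45.1, 36 UMIs) and 15.8 CPM (7.22 to 30.0, 9 UMIs), so that more Cacna1g UMIs came from fibroblasts than from all neurons in control and as many in CFA. The neuronal reference genes in fibroblasts reached at most 7.27% and 5.23% of their neuronal level.

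Mural cells, the contractile cells of vessels, were few (52 and 19), with their markers Rgs5 at 11778 and 7922 CPM and Acta2 at 7226 and 6726 CPM. Cacna1c, the calcium channel of vascular smooth muscle, was at 124 CPM (59.6 to 229, 10 UMIs) in control and 74.7 CPM (9.05 to 270.0, 2 UMIs in 1 cell) in CFA. Cacna1g was at 87.1 CPM (35.0 to 179, 7 UMIs) and 112 CPM (23.1 to 328, 3 UMIs). Cacna1h was at 137 CPM (68.3 to 245, 11 UMIs in 9 cells) in control, beside 134 CPM in cLTMR-like neurons. In the CFA mural cells it had no UMI, where the floor of 3 UMIs stands at 112 CPM. The counting interval of CFA over control reached up to a log2 ratio of 0.26 and did not exclude 0, so a difference between the libraries was not detectable.

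Among the remaining types, myelinating Schwann cells held Cacna1a, with 35.2 CPM (28.7 to 42.8, 101 UMIs) and 37.1 CPM (27.5 to 49.1, 49 UMIs). This was 64.6% and 58.6% of its neuronal level, where the reference genes reached at most 8.65% and 7.63%, and it was 33.7 and 36.4 CPM without the cells that had 1500 CPM or more of neuron genes. Oligodendrocyte-like cells had 26.8 and 24.0 CPM of Cacna1a and satellite glial cells 10.9 and 13.2 CPM. Immune cells held Cacna1d, with 19.0 CPM (9.12 to 34.96, 10 UMIs) and 36.5 CPM (18.8 to 63.7, 12 UMIs), above the 4.41 and 4.40 CPM of neurons. Across all cells, 95.02% and 95.17% of Cacna1h UMIs and 97.1% and 97.3% of Cacna1b UMIs were neuronal, against 23.9% and 32.1% for Cacna1g. Neurons held 38752354 of the 48233077 UMIs of all kept cells in control and 16805306 of 21658155 in CFA. Most UMIs of an evenly expressed gene would therefore be neuronal too.

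The comparison of CFA with control asked whether these genes differed during orofacial inflammation. Over all neurons, none of the 7 genes differed 1.5-fold or more in either direction. Among all genes with at least 50 neuronal UMIs over both libraries together, 4.43% were that much higher and 4.79% lower in CFA. The same 7 genes met this limit. The log2 ratios of CFA over control were 0.02 (-0.13 to 0.17) for Cacna1h, 0.05 for Cacna1c, -0.00 for Cacna1d and 0.05 for Cacna1e. Cacna1a had 0.22 (0.11 to 0.32) and Cacna1b 0.17 (0.10 to 0.25). With 1 library each, the counting interval excluded 0 for 44.2% of all genes, so an interval off 0 is no measure of the condition.

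Cacna1i had the largest ratio, 0.50 (0.24 to 0.76), from 8.57 to 12.1 CPM. The share of cLTMR-like neurons, which hold nearly all of it, was 9.19% in control and 11.7% in CFA. With the neuron classes given the same weights in both libraries the ratio was 0.09. Within cLTMR-like neurons it was 0.16 (-0.11 to 0.43).

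Within cLTMR-like neurons, 4 genes had at least 50 UMIs over both libraries, and none differed 1.5-fold, against 3.24% of all genes that were higher and 5.56% that were lower. Cacna1h gave -0.24 (-0.46 to -0.03), Cacna1a 0.22 (-0.08 to 0.52) and Cacna1b 0.14. In Trpm8 neurons Cacna1h gave -0.53 (-0.97 to -0.10). In peptidergic C neurons without Sstr2 it gave 0.37 (0.00 to 0.74), with 17.1 CPM in control and 22.1 CPM in CFA.

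Cacna1b in peptidergic C neurons with Sstr2 gave 0.42 (0.23 to 0.60), from 138 CPM (593 UMIs) in control to 185 CPM (435 UMIs) in CFA. Larger ratios were seen for Cacna1a in 2 small classes. Cacna1a in Nefh-high neurons was at 53.0 CPM in control and 115 CPM in CFA (log2 1.12, 0.45 to 1.78), and in Sst/Nppb neurons at 39.6 and 90.4 CPM (1.19, 0.46 to 1.97). Nefh-high neurons of the 2 libraries also differed in their own markers, with Ntrk2 at 88.6 and 13.6 CPM and Spp1 at 55.1 and 248 CPM, and the part of this in their calcium channel levels was not tested.

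**Figure D5:**
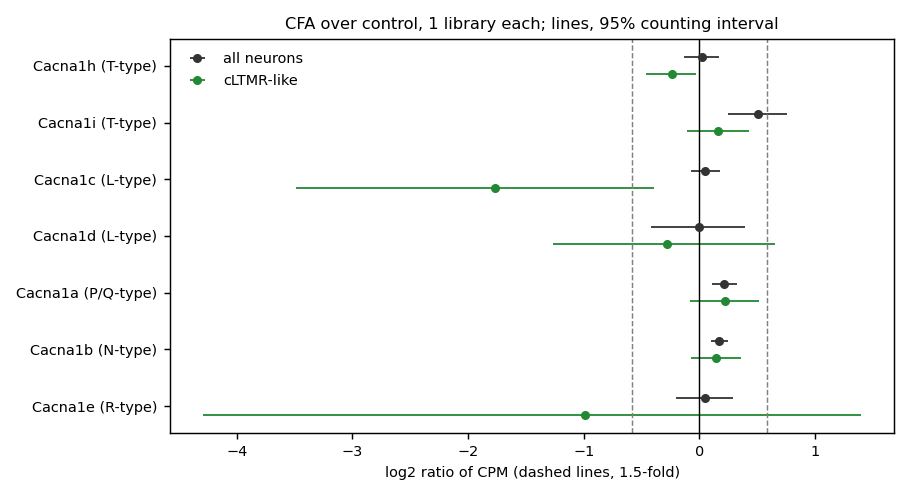
Log2 ratio of CFA over control (x axis) for 7 alpha1 genes (y axis), in all neurons (black) and in cLTMR-like neurons (green), with 95% counting intervals and dashed lines at 1.5-fold. In all neurons every gene lies between the dashed lines, Cacna1i nearest to them at 0.50, and in cLTMR-like neurons Cacna1c (30 and 5 UMIs) and Cacna1e (7 and 2 UMIs) lie outside with wide intervals.

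The position of a gene in the annotation can touch its count. Cacna1a, Cacna1b, Cacna1c, Cacna1d and Cacna1h overlap genes on the opposite strand, whereas Cacna1e, Cacna1g and Cacna1i overlap none. The protein-coding ones are Tpsg1 for Cacna1h, Dcp1b for Cacna1c, and Chdh and Dcp1a for Cacna1d. The part of these overlaps in the levels was not tested. Whether the counting used strand is not given in the sources used here.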

How the data were processed

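The authors deposited UMI counts per gene and cell for each of the 2 libraries. The submitters' processing notes name fastp and GRCm38, and further steps are not given in the sources used here. Here, a cell was kept with at least 150 genes and at most 25% mitochondrial UMIs, the limits of the study. Neurons had at least 3000 CPM and 20 UMIs of Tubb3, Snap25, Uchl1, Stmn2 and Elavl4 together. Gates were applied in the order of P2ry1 (200 CPM), Trpm8 (50), Mrgprd (100), Mrgpra3 (100), Sst with Nppb (500), then Nefh (500), Calca (3000) and Sstr2 (50), with at least 2 UMIs except for P2ry1. Only 2 control neurons passed several of the first gates. Other cells took the type with the highest score of its markers, if this was at least 0.15 and 1.5 times the next score. The 696 control and 353 CFA cells that fell short were left without a type. Doublets were kept, and Scrublet (scanpy 1.11.5) called 102 control and 4 CFA cells. A floor is 3 UMIs of a class.

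Levels carry exact Poisson intervals, shares Clopper-Pearson intervals and ratios conditional binomial intervals (Python 3.11.15, scipy 1.17.1), at 95%. The ratio intervals were run on simulated Poisson counts, the model they assume. That checks the calculation only and says nothing of the spread between cells. Sums over cells give no count test with 1 library a condition, so none was run. The genes named are the 8 alpha1 genes, the genes of the list of 26 that were at least 2-fold apart in both libraries, the 5 most like Cacna1h, and gate or marker genes. Members, lists, gates and thresholds were chosen with earlier results of these data known. Positions are from GENCODE M21.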

Additional observations from a re-analysis of the deposited data

Results flagged for a closer look

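From control to CFA, Cacna1h had ratios of both signs among neuron classes whose counting intervals excluded 0. The only positive one, in peptidergic C neurons without Sstr2, had an interval of 0.0007 to 0.74. Of 58 gene and class pairs with UMIs in both libraries, 11 had an interval off 0, 7 higher and 4 lower in CFA. Over all genes with at least 50 UMIs over both libraries together, the interval excluded 0 for 44.2% in all neurons and 24.7% in cLTMR-like neurons. The 58 pairs had no such minimum and cover further classes, for which the share over all genes was not taken. These shares are therefore not matched to the pairs. The log2 ratio of CFA over control was -0.24 in cLTMR-like neurons (549 and 264 UMIs), -0.53 in Trpm8 neurons (191 and 60 UMIs) and -2.69 in Nefh-high peptidergic neurons (7 and 2 UMIs, of which 1 control cell held 4 and 1 CFA cell both), but 0.37 in peptidergic C neurons without Sstr2 (175 and 97 UMIs). Cacna1c was at -1.77 in cLTMR-like neurons (30 and 5 UMIs, of which 1 control cell held 9) and at 1.65 in Nefh-high neurons (11 and 11 UMIs, of which 1 CFA cell held 7). The difference between classes was not tested, since each condition is 1 library. The Nefh-high peptidergic class had 10 control and 13 CFA neurons, and its Scn10a was at 87.2 and 373 CPM.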

How the results depend on the processing

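The log2 ratio of Cacna1h in cLTMR-like over other neurons stayed positive in 16 alternatives, between 2.74 and 3.34 in control and between 2.42 and 3.00 in CFA. It left the main counting interval with Tafa4 in place of P2ry1 (2.74 in control), with every cell weighted equally (2.74 in control), with neurons thinned to 5000 UMIs (2.42 in CFA) and, in an alternative added after the data were seen, without Trpm8 neurons among the other neurons (3.34 and 3.00). For Cacna1c in control, P2ry1 from 100 CPM, or all gates halved, gave -1.80. For Cacna1i, P2ry1 from 400 CPM, or all gates doubled, gave 5.93 in control and 5.74 in CFA, and equal weight of cells 5.59 in control. The count of genes at least 2-fold apart was 4 in each of the 16, with a limit lower than 50 UMIs where neurons were thinned to 5000 UMIs. All gates halved or doubled gave the same cLTMR-like cells as P2ry1 from 100 or 400 CPM. These settings are therefore not separate checks of the ratios against other neurons. At 5000 UMIs, 1 gene differed 1.5-fold between CFA and control in all neurons, Cacna1i with 0.60. With equal class weights Cacna1h gave -0.19, and Cacna1e gave 0.36 with equal weight of cells and -0.27 at 5000 UMIs. With at least 200 UMIs, 3 genes of the list of 26 were higher and 2 lower. At 2000 UMIs, Cacna1h was found in 17.9% of control and 22.0% of CFA cLTMR-like neurons. Leaving out cells with a Scrublet score above 0.25 (10 control and 2 CFA neurons) moved no neuronal ratio beyond its interval. No paired analysis was possible because each condition has 1 library. Classes of under 20 neurons, mural cells and genes with under 50 UMIs limit what can be read at this depth.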

Other observations

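Over the 18 points of the neuron classes alone, the genes most like Cacna1h included Ndrg2 (r = 0.93), Gpr162 (0.92), Prkaca (0.92) and Gabra3 (0.91), none of which were among the 5 genes found with non-neuronal types included. Ndrg2 was at 125 and 163 CPM in cLTMR-like neurons, 263 and 275 CPM in Trpm8 neurons and 6.36 and 1.78 CPM in NP1 neurons of the control and CFA library. Gabra3, a GABA receptor subunit gene, had 74.9 and 119 CPM, 93.5 and 81.9 CPM, and 3.40 and 0.763 CPM in the same classes. This choice of points was made after the data were seen.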
